A study of Mus musculus with 2 samples.

Results

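Osteoclasts dissolve bone in 2 ways at once: they pump acid onto the mineral and release enzymes that digest the protein matrix. Open chromatin around 7 genes of this machinery was examined in a macrophage-like line of the mouse, RAW264, which turns into osteoclast-like cells under RANKL (receptor activator of NF-kappaB ligand). The 7 windows, each 110 to 150 kb long on build mm9, were set by position around Car2, Tcirg1, Atp6v0d2, Clcn7, Ctsk, Mmp9 and Acp5. All peaks that touched a window were taken, whatever their score. The places of the genes within these windows were not checked here, so each site is named by its window and position and not assigned to a gene. This gave 25 of the 16447 peaks with RANKL and 18 of the 13492 peaks without RANKL, or 43 of 29939 in both lists.

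The RANKL group was RAW264 cells kept for 24 hours with 234 ng/ml of a GST-RANKL fusion protein. The other group was RAW264 cells without RANKL, and both were at passages 3 to 7. DNase-seq was used, in which a light DNase I digest releases short fragments from open chromatin for sequencing. Each group had 1 library of 1 cell line, so no value has a replicate error, no test was possible and every difference describes these 2 libraries. Read depth is unknown, and a site that a list lacks may still have been open. RANKL peaks were far narrower than peaks without RANKL over the whole genome (median 233 bp against 1738 bp), so overlap is used below and not equal extent.

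As background, carbonic anhydrase II (Car2) makes protons inside the cell, and a proton pump of the V-ATPase type carries them across the ruffled border. Tcirg1 encodes the a3 subunit of that pump and Atp6v0d2 the d2 subunit. Clcn7 encodes a chloride/proton exchanger that balances the charge. Cathepsin K (Ctsk) is the main protease for bone collagen, Mmp9 encodes a gelatinase, and Acp5 encodes tartrate-resistant acid phosphatase, the enzyme long used to stain osteoclasts. Loss of TCIRG1, CLCN7 or CA2 causes osteopetrosis, dense unresorbed bone, in humans.

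The letters of these genes' promoters are shown because factors of osteoclast formation are known to bind them. RefSeq promoters on GRCm38.p6 were at hand for 4 of the 7 genes (9 entries, since a gene can have several starts). GRCm38.p6 is not the build of the peaks, so none of these promoters was placed on a peak. The 250 bases before each start were searched on both strands for 6 short motifs. Capitals mark matches, which did not overlap each other, and 1 promoter is given per gene, the entry with the most matches.

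Acp5, chr9:22130599-22130848, minus strand: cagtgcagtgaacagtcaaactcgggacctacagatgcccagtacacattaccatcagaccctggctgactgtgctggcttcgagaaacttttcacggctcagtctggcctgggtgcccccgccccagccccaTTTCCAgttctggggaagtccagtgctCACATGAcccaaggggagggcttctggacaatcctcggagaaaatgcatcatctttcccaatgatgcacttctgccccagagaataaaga
Clcn7, chr17:25133141-25133390, plus strand: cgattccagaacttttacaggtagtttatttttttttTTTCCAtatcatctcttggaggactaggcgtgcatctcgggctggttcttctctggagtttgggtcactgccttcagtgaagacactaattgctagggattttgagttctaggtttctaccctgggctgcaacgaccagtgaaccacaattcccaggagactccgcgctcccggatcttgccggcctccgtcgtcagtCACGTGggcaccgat
Ctsk, chr3:95498960-95499209, plus strand: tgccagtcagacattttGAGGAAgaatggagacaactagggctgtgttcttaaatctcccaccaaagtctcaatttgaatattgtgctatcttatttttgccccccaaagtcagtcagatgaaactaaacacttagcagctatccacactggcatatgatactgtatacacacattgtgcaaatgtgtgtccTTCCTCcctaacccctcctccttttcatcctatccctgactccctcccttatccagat
Tcirg1, chr19:3906984-3907233, minus strand: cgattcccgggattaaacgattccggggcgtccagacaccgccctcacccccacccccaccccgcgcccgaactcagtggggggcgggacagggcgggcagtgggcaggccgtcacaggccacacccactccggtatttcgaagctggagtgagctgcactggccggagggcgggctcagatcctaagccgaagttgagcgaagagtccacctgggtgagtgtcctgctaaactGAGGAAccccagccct

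Of the 9 entries, 4 hold no match, among them both other Acp5 entries and 2 of the 3 Tcirg1 entries. Because the printed entries were picked for their matches, the shares of promoters given below are not a measure of how unusual they are. The printed Acp5 promoter holds an M-box (TCATGTG, read here from the other strand) 90 to 84 bases before the start. The M-box is a form bound by MITF and its relatives, and 3.25% of the 32851 promoters in the table hold it. The same promoter has an NFAT-like match (TGGAAA, 18.6% of promoters). At Clcn7, an E-box (CACGTG, 6.02% of promoters), the core of the sites bound by TFEB and TFE3 at lysosomal genes, lies 15 to 10 bases before the start, with an NFAT-like match farther out. A second Clcn7 start, not printed, has an M-box. Ctsk has 2 PU.1-like matches (GAGGAA, 23.3% of promoters) and Tcirg1 has 1. None of the 9 entries holds the AP-1 letters TGANTCA (6.75% of promoters) or the NF-kB-like letters GGANTTTCC (1.07%). A match is only a run of letters, and no match says only that these letters are not in these 250 bases.

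The first comparison asked which sites around these genes were open in both states. Most peaks were shared, meaning that 1 bp or more lay under a peak of the other list. With RANKL, 19 of 25 peaks were shared and 6 (24.0%, exact Clopper-Pearson interval 9.36 to 45.1%) were RANKL-only, against 34.3% of the whole RANKL list. Without RANKL, 13 of 18 peaks were shared and 5 (27.8%, interval 9.69 to 53.5%) had no RANKL peak, against 39.3% of that whole list. Both intervals contain the share of the whole list, so neither count stands apart from the background. The intervals cover counting error only, and neighbouring peaks are not independent. Overlapping peaks merge into 24 distinct sites, of which 13 were present in both states, 6 with RANKL only and 5 without RANKL only.

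**Figure D1:**
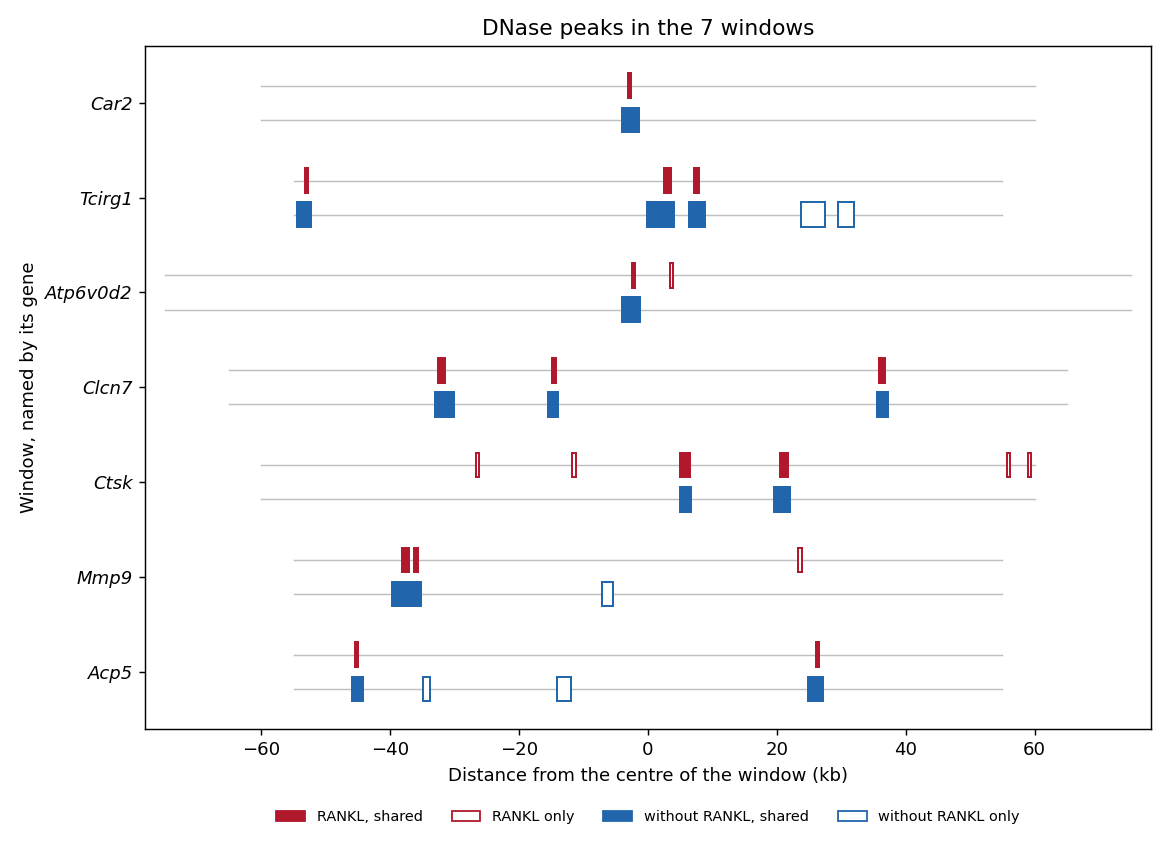
Peaks in the 7 windows, each on a line centred on its window (x axis, kb from the window centre), with RANKL peaks above (red) and peaks without RANKL below (blue). Filled boxes are shared peaks, open boxes are peaks of 1 list only, and peaks under 500 bp are drawn 500 bp wide. By definition, all 13 filled blue boxes have a red box on them. Of the 6 open red boxes, 4 are in the Ctsk window.

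All 6 RANKL-only peaks lay in the Ctsk, Mmp9 and Atp6v0d2 windows, and all 5 sites found only without RANKL lay in the Tcirg1, Acp5 and Mmp9 windows. The Mmp9 window alone had both kinds. The Ctsk window supplied 4 of the 6 RANKL-only peaks, as 4 of its 9 peaks with RANKL, beside 45.3% of all RANKL peaks on chromosome 3 and 34.5% of those within 5 Mb of the window. In the Car2 and Clcn7 windows every peak was shared. These counts of 1 to 9 peaks a list and window carry no test between windows.

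**Figure D2:**
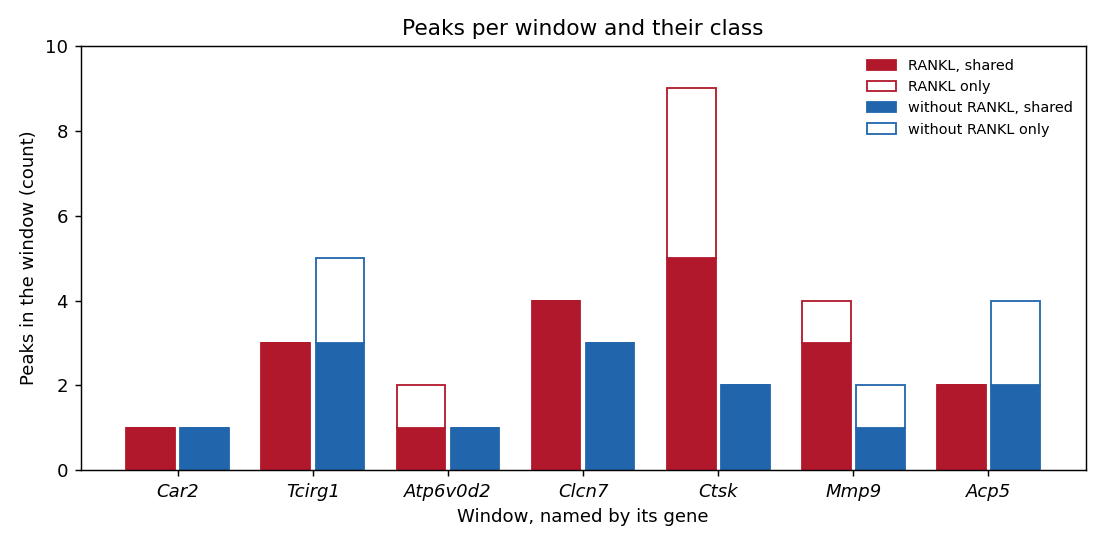
Number of peaks per window (y axis, count), with RANKL (red, left bars) and without RANKL (blue, right bars), split into shared peaks (filled) and peaks of 1 list only (open). Ctsk had 9 peaks with RANKL and 2 without RANKL, while Tcirg1 had 3 with RANKL and 5 without RANKL.

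The scores of these peaks were middling for their lists. The score is the authors' own value per peak and is used only to rank peaks within a list. The median member with RANKL scored above 59.0% of its list and the median member without RANKL above 58.3% of its list, where 50.0% is the middle by construction. The Ctsk window, with 9 of the 25 members with RANKL, had a median of 28.9% for those peaks. With the Ctsk window left out, the medians were 71.1% with RANKL and 64.2% without RANKL. The highest 10% of each list held 3 of the 25 members with RANKL and 2 of the 18 without RANKL. Shared members had medians of 62.9% with RANKL and 63.0% without RANKL, close to the 63.3% and 66.5% of all shared peaks in each list. Peaks of 1 list only had medians of 21.0% with RANKL and 53.6% without RANKL, beside 27.3% and 28.0% over all such peaks. A rank in 1 list and a rank in the other are given side by side below and show no gain or loss, because the lists differ in length and in peak shape.

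**Figure D3:**
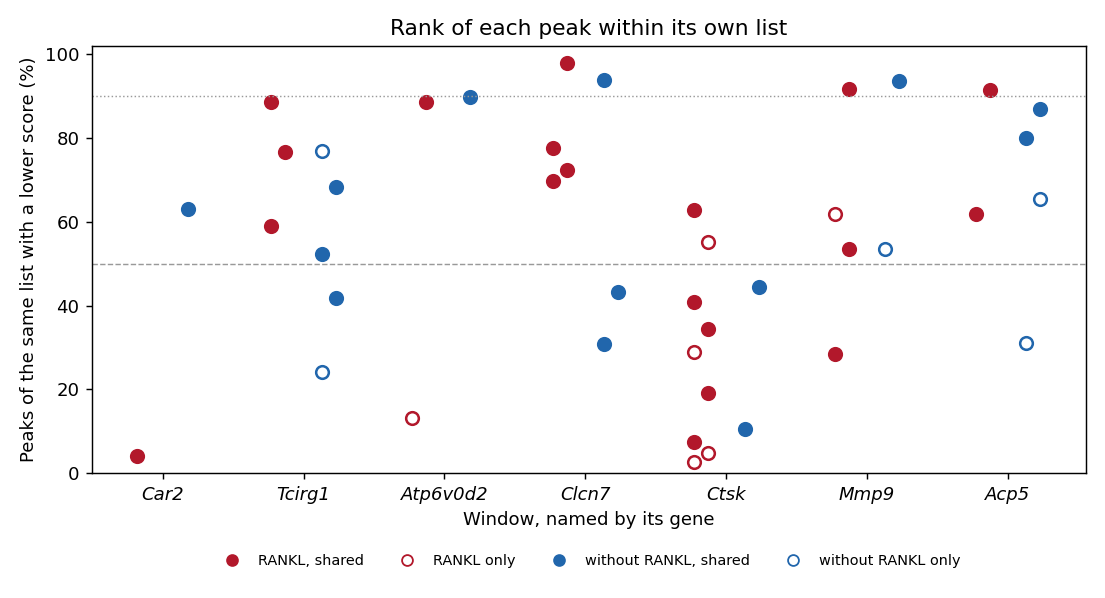
Share of the same list that scored lower than each peak (y axis, percent) by window, with RANKL (red, left) and without RANKL (blue, right). Filled points are shared and open points are in 1 list only, the dashed line marks the middle of a list and the dotted line its highest 10%. The Ctsk points lie between 2.65 and 62.9%, and the Car2 point with RANKL lies at 3.99%.

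Among the genes of acid secretion, the Car2 window on chromosome 3 (14830001 to 14950000) had a single site, open in both states. The RANKL peak at 14887090 to 14887292 was 203 bp wide with a score of 50.9, which is above only 3.99% of its list. The peak without RANKL around it, at 14885976 to 14888611, was 2636 bp wide with a score of 124, above 63.0% of its list. The RANKL peak thus lay just over the lowest score of its list, 50.0, and covered 7.70% of the broad peak, the smallest cover among the 13 shared sites. Among windows of 120 kb over chromosomes 1 to 19 and X, 32.9% held a peak with RANKL and 29.8% held one without RANKL. Car1 and Car3, other carbonic anhydrase genes, stand before Car2 in the gene order of GRCm38, and the site is not assigned to any of them.

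The Tcirg1 window on chromosome 19 (3850001 to 3960000) had 3 peaks with RANKL and 5 without RANKL. Its strongest RANKL peak, at 3912213 to 3912917, was 705 bp wide with a score of 196, above 88.6% of its list. It lay in a peak without RANKL at 3911435 to 3913889 with a score of 105, above 52.2% of that list. A second RANKL peak at 3907564 to 3908539 was 976 bp wide, wider than 98.9% of its list, with a score of 127 (above 76.7%). The peak without RANKL on it, at 3904843 to 3908983, was 4141 bp wide, wider than 98.4% of its list, but its score of 89.3 stood above only 41.9%. Its RANKL peak sat toward one end, 1138 bp from the centre of the broad peak, where the median over the 5931 sites with 1 peak in each list was 152 bp. The third shared site, at the edge of the window, had a RANKL peak at 3851770 to 3852134 (score 84.8, above 59.0%) and a peak without RANKL at 3850453 to 3852719 (score 136, above 68.4%).

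A pair of neighbouring sites in the Tcirg1 window was found only without RANKL. The stronger, at 3928717 to 3932545, was 3829 bp wide with a score of 159, above 76.9% of its list, and was 15.8 kb from the nearest RANKL peak. No other peak of 1 list only in the 7 windows ranked as high. With the list cut into 10 equal bands by score, 14.8% of all peaks in its band lacked a RANKL peak. The weaker, at 3934488 to 3936893, had a score of 69.3 (above 24.2%) and a gap of 21.6 kb, and 65.4% of the peaks in its band lacked a RANKL peak. Among all 110 kb windows of chromosomes 1 to 19 and X, 9.24% had at least the 3 RANKL peaks of this one, and 1.55% had at least its 5 peaks without RANKL. Among those with any peak of the list, the shares were 29.4 and 5.46%. For the Acp5, Mmp9, Clcn7 and Atp6v0d2 windows, over all windows of their lengths, the shares with RANKL were 16.9, 4.93, 6.70 and 22.0%. Without RANKL they were 3.62, 15.1, 9.57 and 33.2%. The windows compared include stretches with no genes, and no allowance was made for gene density. In gene order Chka and Ndufs8 stand next to Tcirg1, with Kmt5b and Aldh3b1 beyond them.

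The Atp6v0d2 window on chromosome 4 (19750001 to 19900000), the longest at 150 kb, had 2 peaks with RANKL and 1 without RANKL. One site was strong in both lists. Its RANKL peak at 19822529 to 19822998 was 470 bp wide with a score of 196, above 88.5% of its list. The peak without RANKL at 19820952 to 19823774 was 2823 bp wide with a score of 216, above 89.8% of its list. A RANKL-only peak lay 4.76 kb from that broad peak, at 19828538 to 19828675, the shortest gap among the 11 peaks of 1 list only. It was 138 bp wide with a score of 53.2, above 13.1% of its list, and 63.5% of RANKL peaks in its score band were RANKL-only.

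The Clcn7 window on chromosome 17 (25220001 to 25350000) held the highest-scoring members of both lists. The RANKL peak at 25252395 to 25253522 was 1128 bp wide with a score of 407, ranking 352 of 16447. It lay in a peak without RANKL at 25251941 to 25254856, with a score of 254 and rank 827 of 13492. The broad peak was 2.59 times as wide, the least difference among the 9 member sites with 1 peak in each list (median 5.37, and 5.76 over all such sites). At the middle site, the RANKL peak at 25270285 to 25270571 scored above 69.8% of its list and the peak without RANKL at 25269533 to 25271074 above 43.3%. At the third site, 2 RANKL peaks 31 bp apart, at 25320931 to 25321362 and 25321394 to 25321859, scored above 77.6 and 72.4% of their list. They lay in a peak without RANKL at 25320522 to 25322299 that scored above 30.7%, and together they covered 50.5% of it, the largest cover among the 13 shared sites. Ptx4 and Ccdc154 flank Clcn7 in gene order.

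Among the matrix enzymes, the Ctsk window on chromosome 3 (95250001 to 95370000) had the most RANKL peaks, 9 with RANKL against 2 without RANKL. All were of low or middling score, from 50.6 to 91.0 with RANKL, and at 57.6 and 92.9 without RANKL. There were 3 RANKL peaks, at 95330567 to 95330910, 95330936 to 95331180 and 95331376 to 95331721, with gaps of 25 and 195 bp, inside a single peak without RANKL at 95329527 to 95332036. They scored above 40.9, 34.5 and 19% of their list, and the broad peak above 44.4% of its own. At the other shared site 2 RANKL peaks lay 574 bp apart. The one at 95315980 to 95316443 had the highest score of the window with RANKL (91.0, above 62.9%), and the one at 95315143 to 95315405 had a score of 51.8 (above 7.34%). The peak without RANKL around them, at 95314931 to 95316671, had a score of 57.6, above 10.6% of its list.

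The 4 RANKL-only peaks of the Ctsk window were narrow, from 113 to 283 bp, and the closest 2 stood 3055 bp apart. The strongest, at 95298385 to 95298667, had a score of 79.8, above 55.2% of its list, and lay 16.3 kb from the nearest peak without RANKL. In its score band 28.2% of RANKL peaks were RANKL-only. The peak at 95283441 to 95283613 scored 58.8 (above 28.9%), and those at 95365962 to 95366074 and 95369130 to 95369270 scored 50.6 and 51.1, close to the lowest score of the list. In the band that holds these last 2, 65.7% of RANKL peaks were RANKL-only.

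The 9 RANKL peaks of the Ctsk window lay at 6 distinct sites, as 5 of them lay in 2 peaks without RANKL. Only 0.291% of 120 kb windows on chromosomes 1 to 19 and X held as many RANKL peaks as the Ctsk window or more. Among those with any RANKL peak the share was 0.885%. For its 2 peaks without RANKL the share was 16.0%. These shares count peaks and not sites, and no allowance was made for gene density. The surroundings of the window were counted as well. Within 5 Mb of the window there were 223 peaks with RANKL and 124 without RANKL, a ratio of 1.80. Chromosome 3 as a whole had a ratio of 1.71 against 1.22 over all chromosomes. The part of these surroundings in the Ctsk count was not tested. Leaving the Ctsk window out left 16 RANKL peaks, of which 2 (12.5%, interval 1.55 to 38.3%) were RANKL-only. That interval contains the 34.3% of the whole RANKL list. Ctss, the gene of cathepsin S, a macrophage protease, follows Ctsk in gene order and Arnt precedes it. Which gene each peak belongs to, one of these or another, was not resolved here.

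The Mmp9 window on chromosome 2 (164720001 to 164830000) had 4 peaks with RANKL and 2 without RANKL. Its main site held 3 RANKL peaks. The one at 164736846 to 164737607 had a score of 231, above 91.6% of its list, and the next, at 164737609 to 164737887, began after a gap of 1 bp and scored above only 28.4%. The third, at 164738824 to 164739127, lay 936 bp farther on and scored above 53.6%. The peak without RANKL around all 3, at 164735272 to 164739687, was the widest member at 4416 bp, with a score of 250, above 93.6% of its list. Each state also had a site of its own. A RANKL-only peak at 164798481 to 164798734 had a score of 89.2, above 61.8% of its list, the highest of the 6 RANKL-only members. It was 29.0 kb from the nearest peak without RANKL, and 18.8% of its score band was RANKL-only. A peak without RANKL at 164767914 to 164769497 had a score of 107, above 53.6%, with a gap of 28.8 kb to the RANKL list, and 36.7% of its score band had no RANKL peak. In gene order Mmp9 lies between Zfp335 and Slc12a5, the gene of a neuronal chloride transporter.

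The Acp5 window on chromosome 9 (21880001 to 21990000) had 2 peaks with RANKL, both shared, and 4 without RANKL. The stronger shared site had a RANKL peak at 21961052 to 21961640 with a score of 230, above 91.5% of its list, and a peak without RANKL at 21959868 to 21962181 with a score of 198, above 86.9%. The other had a RANKL peak at 21889569 to 21889878 (score 89.2, above 61.8%) and a peak without RANKL at 21889005 to 21890729 (score 170, above 80.0%). Between them lay 2 sites found only without RANKL. The one at 21920855 to 21923073 was 2219 bp wide with a score of 129, above 65.4% of its list, and was 31.0 kb from the nearest RANKL peak, the largest such gap among the 5 sites found only without RANKL. In its score band, 25.0% of peaks lacked a RANKL peak. The one at 21899972 to 21901149 had a score of 76.7 (above 31.1%) and a gap of 10.1 kb, with 55.7% of its score band lacking one. The 2 RANKL peaks stood 71.2 kb apart, the longest stretch between neighbouring RANKL peaks in any of the 7 windows. Elof1 and Pigyl stand next to Acp5 in gene order.

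The second comparison concerned the form of the shared sites. At all 13, the RANKL peaks, 19 in all, lay wholly inside the broad peak, as did 99.7% of the 5931 sites of the whole lists with 1 peak in each, so the members match the background in this. Of the 18 broad peaks, 4 held 2 or more RANKL peaks (22.2%, interval 6.41 to 47.6%), against 16.7% of the whole list without RANKL. Without the Ctsk window this share was 12.5% (2 of 16, interval 1.55 to 38.3%), and both intervals contain 16.7%. The share was 9.09% (1 of 11) in the upper 50% of each list by score, a setting for which no share of the whole list was computed. The broad peaks with 3 or more RANKL peaks were the sites in the Ctsk and Mmp9 windows. They were 2 of 18, against 2.19% of the whole list, a share that rests on 2 peaks. Among the 18 gaps between neighbouring RANKL peaks of the same window, 3 (16.7%) were under 50 bp. These 3 were the 1 bp gap in the Mmp9 window, the 25 bp gap in the Ctsk window and the 31 bp gap in the Clcn7 window. Over the whole list 5.32% of gaps were under 50 bp. That share also counts gaps longer than a window, which member gaps cannot be, so the 2 shares are not like for like. Merging peaks closer than 1 kb left 19 RANKL peaks in the windows, and no broad peak then held more than 1.

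**Figure D4:**
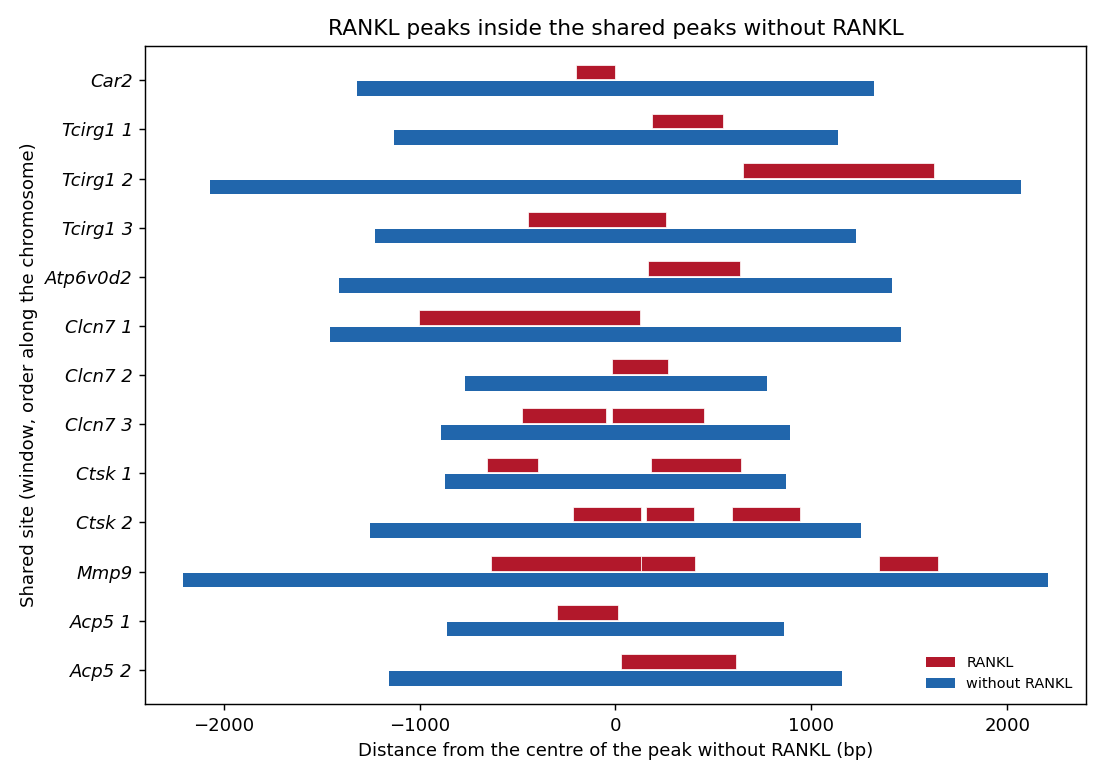
The 13 shared sites, each aligned at the centre of its peak without RANKL (x axis, bp), with RANKL peaks above (red) and the peak without RANKL below (blue). Sites are named by window and numbered along the chromosome. Every red bar ends inside its blue bar, as at 99.7% of all sites with 1 peak in each list, and the Ctsk, Mmp9 and Clcn7 windows have sites with 2 or 3 red bars.

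Widths followed those of each list, somewhat above the middle. The median width was 310 bp for members with RANKL (113 to 1128 bp), against 233 bp over the list, and 2360 bp for members without RANKL (1178 to 4416 bp), against 1738 bp. Shared RANKL members had a median of 365 bp, against 294 bp over all shared RANKL peaks, and RANKL-only members 157 bp, against 155 bp over all RANKL-only peaks. In total, 10040 bp of member peaks with RANKL and 44480 bp without RANKL were covered. With RANKL the Ctsk window had the largest part of its length inside a peak, 1.98%, and without RANKL the Tcirg1 window, 13.7%. These covers depend on the peak width of each list and are not compared between lists.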

How the data were processed

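Peak lists of 1 DNase-seq library with RANKL and 1 without RANKL were used. The submitters' processing notes name Bowtie2 2.0.0, MACS2 and build mm9. How the score was defined, which threshold applied and whether a control library was used is not given in the sources consulted. The deposited score is the authors' own value per peak. It was only ranked within its list. Starts were written 1-based.

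The windows, the gene list and the motifs were chosen with earlier results of these data known. Named were the highest-scoring peak of each list per window, peaks in the highest 10%, peaks of 1 list only and broad peaks with 3 or more RANKL peaks; the other members are also described. Neither a genome nor an annotation of mm9 was used, so no peak was assigned to a gene, promoter or exon, the places of the genes within the windows were not checked, and other genes of the pathway were not placed. Gene order came from the RefSeq table of GRCm38.p6. Overlaps, exact Clopper-Pearson intervals (95%, counting error only) and windows of equal length were computed in scipy 1.17.1, pandas 2.3.3 and numpy 2.4.6 under Python 3.11.15. The overlap steps were checked on made-up intervals. Alternatives were other overlap rules, score limits, merging, window edges and leaving out each window.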

Additional observations from a re-analysis of the deposited data

How the results depend on the processing

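In all, 124 alternative values were computed. For 114 of them the count was within a factor of 1.5 of the one above, or the share or median was inside its 95% binomial interval. Part of these could not have moved, since the overlap rules change neither the number of peaks nor their ranks. The intervals are also wide, from 9.36 to 45.1% for the RANKL-only share, so the 114 are no measure of stability. With a reciprocal overlap of 50%, 100% of the peaks of both lists became unshared, because the widths of the lists differ so much. With the upper 50% of each list by score, 15 peaks with RANKL and 11 without RANKL were left, and the RANKL-only share became 46.7% (7 of 15), since the weaker peaks of the other list were removed too. That share was 40.0% (10 of 25) with 500 bp windows around peak centres and 15.0% (3 of 20) with equal numbers of peaks. It was 13.3% (2 of 15) without the chromosome 3 windows and 12.5% (2 of 16) without the Ctsk window. The interval of the latter, 1.55 to 38.3%, contains the 34.3% of the whole RANKL list. Under settings that change the peaks or the overlap rule, the share of the whole list was not computed. Member values at those settings can therefore not be set against the 34.3% of the whole RANKL list. Windows widened by 50 kb held 39 peaks with RANKL and 29 without RANKL. Leaving out the Ctsk window left 16 RANKL peaks, and leaving out both windows on chromosome 3 left 15. With peaks closer than 1 kb merged, 0% of broad peaks held 2 or more RANKL peaks, and without the chromosome 3 windows 13.3% did. Over all alternatives the median member scored above 53.6 to 72.4% of the RANKL list and above 52.2 to 76.9% of the list without RANKL. The 76.9% came from the upper 50% of the list by score, where ranks in the full list were kept and are high by construction. The next highest value without RANKL was 68.4%, with windows widened by 50 kb. The 72.4% was reached with the upper 50% and also without the chromosome 3 windows. No replicate could be left out, because each group had 1 library. Unknown depth limits every statement about a peak missing from a list.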

Other observations

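Several windows had stronger sites just outside them, in the 50 kb on each side, than inside. Next to the Tcirg1 window, a RANKL peak at 4000229 to 4000861 on chromosome 19 had a score of 278, above 94.4% of its list. The peak without RANKL at 3999213 to 4001350 had a score of 215, above 89.7% of its list. Next to the Acp5 window, a RANKL peak at 22029906 to 22030641 on chromosome 9 had a score of 471, above 98.6% of its list, and the peak without RANKL at 22029234 to 22031204 had a score of 330, above 97.7%. The Ctsk window was flanked on both sides by such sites: at 95238050 to 95238854 and 95392471 to 95393172 on chromosome 3, RANKL peaks had scores of 398 and 368 (above 97.7 and 97.2% of the list), and the peaks without RANKL on them had scores of 257 and 270 (above 94.2 and 95.3%). All RANKL peaks inside the Ctsk window had scores of 91.0 or less. The flanks of the Mmp9 window held 4 RANKL peaks, at scores of 50.2 to 241, and 3 peaks without RANKL, at 82.9 to 226, all shared. Other flanks also held peaks of 1 list only. RANKL-only peaks lay beside the Clcn7 (score 55.4), Tcirg1 (74.2) and Car2 (52.8) windows. A peak found only without RANKL lay beside the Ctsk window (score 73.9).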
